A study of Mus musculus with 8 samples.

Results

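The genes described here are nuclear genes named for subunits of 3 enzymes of mitochondrial oxidative phosphorylation. They were taken by symbol, as those beginning with Ndufa, Ndufb, Ndufc, Ndufs, Ndufv, Uqcr or Atp5, leaving out the assembly factors that begin with Ndufaf. This gave 64 of the 32285 genes in the deposited matrices, by symbol 39 of complex I, 8 of complex III and 17 of ATP synthase. The 39 include Ndufa4, which is now placed in complex IV, and its paralog Ndufa4l2. They were read in 8 scRNAseq libraries, each from the liver of 1 mouse (C57BL/6J, female, 9 weeks of age). Control mice (replicates 1 to 4) were untreated. Beta-glucan (BG) mice (replicates 5 to 8) received 1.2 mg of odetiglucan, a soluble yeast glucan also called Imprime PGG, by vein on day 0 and were euthanised on day 2. No mouse carried a tumor. Each library held CD45+ liver cells together with cells that a Ficoll gradient recovered from the other fraction, so that shares of cells are set in part by the enrichment.

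Oxidative phosphorylation makes most of the ATP of a resting cell. Complex I takes electrons from NADH and complex III passes them to cytochrome c, and both pump protons across the inner mitochondrial membrane. ATP synthase lets the protons flow back and uses their energy to make ATP. Subunits of these enzymes come from both genomes, so that nuclear and mitochondrial transcripts must be made side by side. Lymphocytes that leave the resting state are known to enlarge both their mitochondria and their glycolysis.

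All 64 genes had a model in GENCODE vM21 on GRCm38, the assembly of mm10, and they lay on 19 chromosomes, with 2 of them on chromosome X. They are thus not gathered in a single place, although some are near neighbours. Atp5d, Ndufs7 and Uqcr11 lay between bases 80138632 and 80406830 of chromosome 10, and Ndufs8 and Ndufv1 between 3908863 and 4012806 of chromosome 19. Promoters of 54 of them could be matched to RefSeq sequences of GRCm38.p6, each covering 250 bases before and 50 bases from the transcription start on. The NRF1 core GCGCATGC, read on both strands, was in 8 of the 54 (14.8%). It was in 3.05% of 27025 mouse genes with promoters of the same length, which are not only genes tested here. A gene counted if any promoter listed for it matched. The YY1 core AAGATGGC was in 10 (18.5%, against 3.19% of all these genes). The ETS and GABP core CCGGAAG was in 12 (22.2%, against 9.93%). The GC box GGGCGG, the letters that Sp1 is known to bind, was in 21 (38.9%, against 38.2%). NRF1, YY1 and GABP are factors known for acting on nuclear genes of mitochondria. The promoters of the 4 genes that were called between groups in any class are shown because the results below turn on these genes. They are written 5′ to 3′ along the gene, all 4 on the minus strand, and capitals mark matches to the NRF1, YY1 or ETS core. Atp5e (chr2:174464052-174464351) held an ETS core and Ndufb8 (chr19:44555393-44555692) a YY1 core. Uqcr11 (chr10:80406772-80407071) held both an NRF1 and an ETS core, and Ndufa4 (chr6:11907401-11907700) none of these letters. A match describes the letters and not the binding of a factor.
Atp5e: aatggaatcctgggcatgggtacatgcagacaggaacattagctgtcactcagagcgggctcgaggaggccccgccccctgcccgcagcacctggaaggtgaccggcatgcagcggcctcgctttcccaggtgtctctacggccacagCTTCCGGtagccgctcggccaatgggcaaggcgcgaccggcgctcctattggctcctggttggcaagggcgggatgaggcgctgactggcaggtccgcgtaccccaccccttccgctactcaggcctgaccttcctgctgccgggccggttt
Ndufa4: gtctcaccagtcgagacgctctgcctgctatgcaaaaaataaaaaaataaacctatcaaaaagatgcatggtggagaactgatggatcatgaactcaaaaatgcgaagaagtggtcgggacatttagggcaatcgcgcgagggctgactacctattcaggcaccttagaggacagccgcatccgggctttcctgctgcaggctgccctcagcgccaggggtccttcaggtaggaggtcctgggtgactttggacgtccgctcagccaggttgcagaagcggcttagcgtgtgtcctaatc
Uqcr11: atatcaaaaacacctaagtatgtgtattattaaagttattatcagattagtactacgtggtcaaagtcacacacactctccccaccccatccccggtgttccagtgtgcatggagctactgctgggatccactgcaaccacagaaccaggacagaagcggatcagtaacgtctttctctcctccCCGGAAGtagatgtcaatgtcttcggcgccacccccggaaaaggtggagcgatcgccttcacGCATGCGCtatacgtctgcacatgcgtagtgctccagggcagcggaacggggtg
Ndufb8: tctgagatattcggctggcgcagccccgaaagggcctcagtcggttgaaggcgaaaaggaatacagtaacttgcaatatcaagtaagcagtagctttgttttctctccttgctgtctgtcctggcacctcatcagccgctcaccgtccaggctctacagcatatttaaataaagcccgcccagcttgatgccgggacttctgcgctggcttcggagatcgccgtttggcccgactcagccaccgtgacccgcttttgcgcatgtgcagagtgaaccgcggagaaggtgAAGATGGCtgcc

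Cells were kept with 200 to 2500 detected genes and at most 30% of UMIs (unique molecular identifiers, each a counted transcript molecule) from mitochondrial genes. This left 48465 cells, and the libraries held 12499993 to 21529646 UMIs in them. Cells were placed in classes by lists of marker genes, none of which is a subunit gene, and 41183 cells (85.0%) entered a class. The classes tested held 19335 T cells, 3202 NK and ILC1 cells, 8599 B cells, 369 Kupffer cells (KCs, the resident macrophages), 558 monocytes and bone marrow derived macrophages (BMDMs), 301 conventional dendritic cells (DCs), 1196 plasmacytoid DCs and 6535 endothelial cells. Inside the T cells, 1791 with Cd4 and Cxcr6 but without Cd8a were also taken as Cxcr6 CD4 T cells, so the results of that class and of all T cells share cells. The same markers placed the cells, so their levels are no separate check of the classes. BG replicate 5 stood apart before the limits on cells, with a median of 34 genes per barcode and 66.6% of its UMIs from mitochondrial genes, and kept 4330 cells. Any 2 libraries shared 5 to 26 of their kept barcodes. Control replicate 1 had 9 KCs and was left out of that class, which leaves 3 Control and 4 BG mice there. Ndufa4l2, a paralog of Ndufa4 that rises under low oxygen, had too few UMIs to be tested in any class. The other 63 subunit genes were tested in most classes. In KCs 59 were tested, and 61 in monocytes and BMDMs and in conventional DCs.

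To ask how BG changed the subunit genes, UMIs were summed per mouse and class, and groups were compared over all genes with edgeR's quasi-likelihood test and Benjamini-Hochberg adjustment. Levels are CPM, a gene's UMIs scaled to a common library size after TMM normalisation, and fold changes are BG over Control on the log2 scale. Fold changes of the subunit genes were small, and most were positive in T cells, Cxcr6 CD4 T cells, NK and ILC1 cells and KCs. In T cells 62 of 63 had a positive fold change, with a median of 0.23, beside a median of -0.01 over all 11368 genes tested. Medians were 0.25 in Cxcr6 CD4 T cells (60 of 63 positive), 0.17 in NK and ILC1 cells (59 of 63) and 0.33 in KCs (54 of 59). In B cells the median was 0.04 (43 of 63) and in plasmacytoid DCs 0.00 (31 of 63). Leaving out 1 mouse each gave medians of 0.14 to 0.27 in T cells, 0.16 to 0.31 in Cxcr6 CD4 T cells, 0.11 to 0.24 in NK and ILC1 cells and 0.21 to 0.44 in KCs, and the lowest of each range was without BG replicate 7. For B cells these medians ran from -0.01, also without BG replicate 7, to 0.08. Genes of a mouse vary together, so these counts are no independent support of one another.

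Few single genes passed the adjusted test. In T cells 1 subunit gene of 63 was called higher at an adjusted p under 0.05, where 3.1% of all genes were. Cxcr6 CD4 T cells had 2 (1.96% of all genes), and in NK and ILC1 cells 2 (2.44%). Each of these counts lies near the share of all genes. No subunit gene was called lower in any class. At an unadjusted p under 0.05 the counts were larger, with 36 of 63 higher in T cells (11.2% of all genes), 28 in Cxcr6 CD4 T cells (9.09%) and 26 in NK and ILC1 cells (8.81%). All 4 BG mice lay above all 4 Control mice for 13 subunit genes in T cells (6.66% of all genes), 12 in Cxcr6 CD4 T cells (4.79%) and 8 in NK and ILC1 cells (4.94%). DESeq2 called 12 subunit genes higher in T cells (4.02% of all genes), 3 in Cxcr6 CD4 T cells (2.88%) and 2 in NK and ILC1 cells (1.63%). The counts turned on single mice when 1 mouse each was left out. They are given without the share of all genes called in the same repeat. They therefore do not show whether the subunit genes moved apart from all genes. Without BG replicate 8 edgeR called 9 in T cells, without BG replicate 6 it called 2, and without Control replicates 1, 3 or 4 or BG replicates 5 or 7 it called 0. For Cxcr6 CD4 T cells the count was 5 without BG replicate 6, 3 without BG replicate 8, 1 without Control replicates 1 or 2 or BG replicate 5, and 0 without Control replicates 3 or 4 or BG replicate 7. For NK and ILC1 cells it was 4 without Control replicate 2, 3 without BG replicate 6, 1 without Control replicate 4, and 0 without Control replicate 3 or BG replicates 5 or 7.

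**Figure D1:**
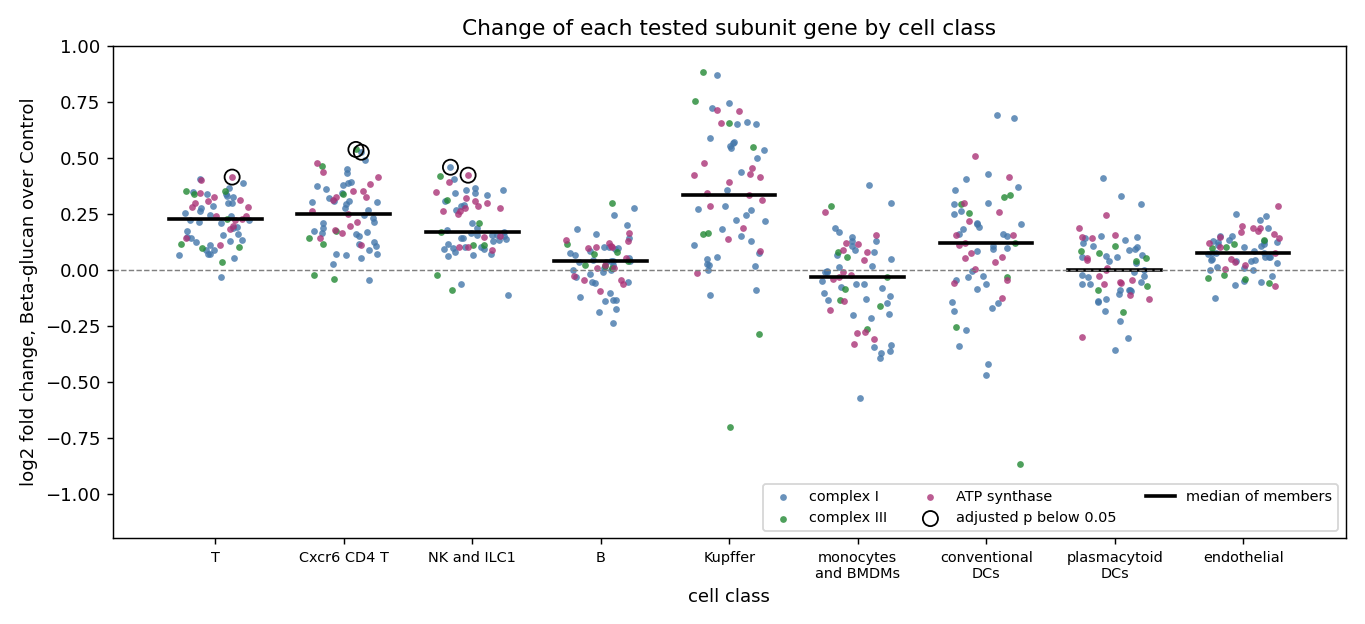
Each point is 1 tested subunit gene, coloured by enzyme as its symbol gives it (Ndufa4 with complex I), with its log2 fold change of Beta-glucan over Control on the y axis and the cell class on the x axis. Bars are the medians of the subunit genes, 0.23 in T cells, 0.04 in B cells and 0.33 in Kupffer cells, and rings mark the 5 results with an adjusted p below 0.05.

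Atp5e encodes the epsilon subunit, the smallest part of the rotating stalk of ATP synthase. In T cells its level was 626, 664, 522 and 559 CPM in the Control mice and 752, 701, 970.2 and 735 in the BG mice. The groups did not overlap, and BG replicate 7 was the highest. The log2 fold change was 0.41 (SE 0.107, n = 4 per group, adjusted p = 0.0491 by edgeR's quasi-likelihood test). It was called again without Control replicate 2, BG replicate 6 or BG replicate 8. Without BG replicate 7 the log2 fold change was 0.30 (adjusted p = 0.112), and the adjusted p was 0.08 without Control replicate 1, 0.168 without Control replicate 3, 0.141 without Control replicate 4 and 0.0877 without BG replicate 5. Of 11 other settings of cells, scaling or test, 6 called it, and its log2 fold change there ran from 0.25 to 0.50.

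In NK and ILC1 cells Atp5e stood at 697, 737, 517 and 574 CPM in Control mice and at 828, 749, 1012 and 793 in BG mice. The groups again did not overlap, and BG replicate 7 was again the highest. The log2 fold change was 0.42 (SE 0.116, adjusted p = 0.0446 by edgeR). Leaving out Control replicate 3 gave an adjusted p of 0.211, Control replicate 4 one of 0.15, BG replicate 5 one of 0.0907, BG replicate 7 one of 0.176 and BG replicate 8 one of 0.0513. Among the 11 other settings 5 called it, with log2 fold changes from 0.14 to 0.42. In Cxcr6 CD4 T cells the log2 fold change of Atp5e was as large, at 0.42, but its adjusted p by edgeR was 0.0611. In B cells the same gene lay at 529, 603, 427 and 478 CPM in Control mice and at 502, 475, 683 and 527 in BG mice. There the groups overlapped, with a log2 fold change of 0.10 and an adjusted p of 0.903 by edgeR.

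Ndufa4 carries a complex I name but is now placed in complex IV, the cytochrome c oxidase. By its symbol it is counted here with complex I. In NK and ILC1 cells its level was 351, 365, 328 and 349 CPM in Control mice and 514, 428, 552 and 421 in BG mice. The groups did not overlap. The log2 fold change was 0.46 (SE 0.107, adjusted p = 0.0154 by edgeR), and it was called in 5 of 8 repeats that left out 1 mouse each. It was not called without Control replicate 3 (adjusted p = 0.0717 by edgeR), when BG replicate 5 was dropped (adjusted p = 0.0539) or when BG replicate 7 was (adjusted p = 0.0681). Under the 11 other settings 7 called it, with log2 fold changes from 0.39 to 0.51. The log2 fold change of Ndufa4 was 0.34 in T cells (adjusted p = 0.108 by edgeR) and 0.37 in Cxcr6 CD4 T cells (0.124). In B cells it was 0.04, with overlapping groups.

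Uqcr11 encodes a small subunit of complex III. In Cxcr6 CD4 T cells its level was 137, 109.7, 103 and 88.8 CPM in Control mice and 149, 149, 192 and 157 in BG mice. Control replicate 1 came nearest to the BG mice, without reaching them. The log2 fold change was 0.54 (SE 0.138, adjusted p = 0.0372 by edgeR). It was called without Control replicate 1 or BG replicate 6, and missed the threshold without any other mouse, with adjusted p from 0.0503 without BG replicate 5 to 0.143 without Control replicate 4. Of the 11 other settings 7 called it, but its log2 fold change there ran from 0.06 to 0.55, so its size also depended on the setting.

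Ndufb8, an accessory subunit in the membrane arm of complex I, lay in the same cells at 84.6, 125, 97.9 and 103 CPM in Control mice and at 159, 143, 149.9 and 133 in BG mice. These groups did not overlap either. The log2 fold change was 0.53 (SE 0.132, adjusted p = 0.0333 by edgeR). The call was kept without Control replicate 2 or BG replicates 6 or 8, and without the others the adjusted p ran from 0.0744 (BG replicate 7) to 0.16 (Control replicate 1). Under the 11 other settings 5 called Ndufb8, and its log2 fold change ran from 0.22 to 0.54. Uqcr11 and Ndufb8 were the only subunit genes to pass both the adjusted p and a log2 fold change over 0.5, in any class. Over all T cells their log2 fold changes were 0.35 and 0.35, with overlapping groups. In B cells they were 0.01 and -0.02.

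**Figure D2:**
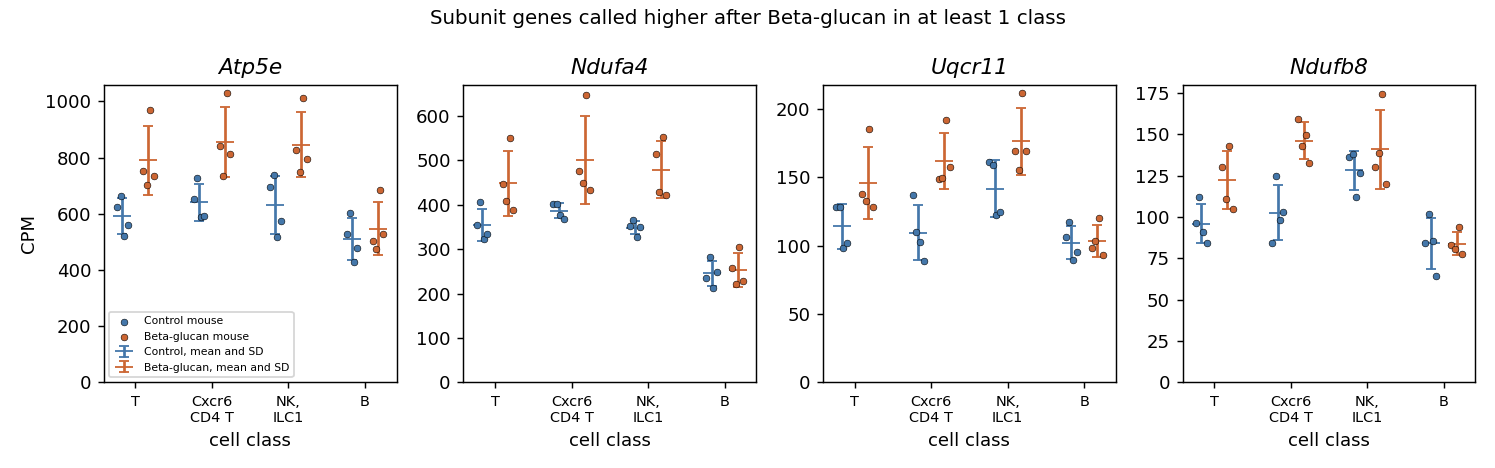
CPM (y axes, from 0) of the 4 subunit genes called in at least 1 class, in T cells, Cxcr6 CD4 T cells, NK and ILC1 cells and B cells. Each point is 1 mouse, and bars give the mean and SD of 4 mice. For Atp5e in T cells the Control mice reach 664 and the BG mice start at 701, while in B cells the groups overlap (427 to 603 against 475 to 683).

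Medians differed between the enzymes. ATP synthase had 17 of 17 genes with a positive fold change in T cells, with a median log2 fold change of 0.28 and 14 of 17 at an unadjusted p under 0.05. Complex I was split. Its 7 core subunits named Ndufs or Ndufv, which hold the flavin and the iron-sulfur clusters or bind quinone, had a median of 0.12 with 0 of 7 at an unadjusted p under 0.05 by edgeR. Its other subunits by symbol, Ndufa4 included, had a median of 0.24 with 19 of 31. Complex III had a median of 0.17 with 3 of 8. NK and ILC1 cells had the same order of medians, with 0.27 for ATP synthase, 0.16 for the other complex I subunits, 0.14 for complex III and 0.09 for the complex I core. In the same listing the medians in Cxcr6 CD4 T cells were 0.31, 0.28, 0.16 and 0.16. These differences between enzymes were not tested.

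Core subunits of complex I had log2 fold changes of 0.12 (Ndufs1), 0.09 (Ndufs7), 0.07 (Ndufs8), 0.15 (Ndufv1) and 0.13 (Ndufv2) in T cells, none of them called. The other subunits of complex I ran from 0.05 to 0.40. Among them Ndufab1, the mitochondrial acyl carrier protein that also serves fatty acid and lipoic acid synthesis, had 0.39 (adjusted p = 0.0879 by edgeR), and Ndufa12 had 0.33.

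In complex III the 2 core proteins and the Rieske iron-sulfur protein had log2 fold changes of 0.11 (Uqcrc1), 0.10 (Uqcrc2) and 0.10 (Uqcrfs1) in T cells, none of them called. In the catalytic head of ATP synthase, the beta subunit Atp5b, which carries the active site, lay at 307, 323, 298 and 303 CPM in Control mice and at 401, 343, 395 and 318 in BG mice. BG replicate 8 fell within the Control range, and the log2 fold change was 0.24 (adjusted p = 0.135 by edgeR). The alpha subunit Atp5a1 lay at 253, 263, 256 and 268 against 278, 275, 287 and 282. These groups did not overlap, although the log2 fold change was only 0.11 (SE 0.0632, adjusted p = 0.396). The gamma subunit Atp5c1 had 0.14 and Atp5o, in the stalk that holds the head still, 0.31.

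Atp5g1, Atp5g2 and Atp5g3 encode the same mature c subunit, which forms the rotating ring in the membrane. Their log2 fold changes in T cells were 0.40, 0.23 and 0.33, with adjusted p of 0.174, 0.18 and 0.0735 by edgeR. Atp5g1 lay at 196, 227, 174 and 184 CPM in Control mice and at 291, 231, 330.2 and 181 in BG mice, where BG replicate 8 stayed in the Control range. Atp5g3 lay at 176, 187, 159.5 and 158 against 216, 201, 248 and 189, without overlap.

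The size of the whole set can be read as the share of nuclear-encoded UMIs that the 64 genes took together. In T cells this was 1.34, 1.41, 1.23 and 1.24% in Control mice and 1.48, 1.44, 1.69 and 1.42% in BG mice. The groups did not overlap, and the ratio of their means was 1.15. The shares in Cxcr6 CD4 T cells were 1.38, 1.44, 1.29 and 1.27% against 1.55, 1.48, 1.75 and 1.50%, without overlap and with a ratio of 1.17. Those in NK and ILC1 cells were 1.46, 1.50, 1.33 and 1.33% against 1.62, 1.53, 1.72 and 1.49%, where BG replicate 8 fell below Control replicate 2. In B cells they were 1.04, 1.15, 0.985 and 0.989% against 1.08, 1.02, 1.16 and 1.05%, which overlapped. Control replicate 2 had the highest share of the Control mice in 8 of 8 classes that do not overlap, and BG replicate 7 the highest of the BG mice in 8 of 8. The rank of these mice was thus the same in classes whose groups overlapped and in those whose groups did not.

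**Figure D3:**
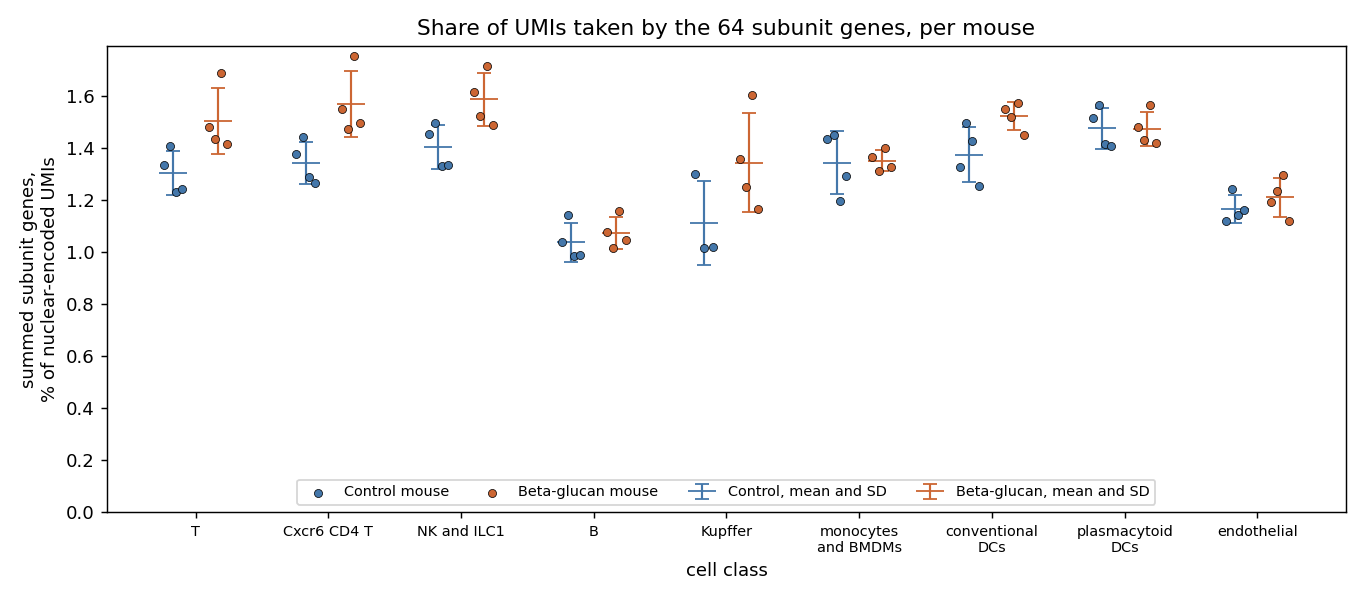
Share of nuclear-encoded UMIs taken by the 64 subunit genes, in percent from 0, for each mouse (points) and class, with the mean and SD of each group. In T cells the Control mice end at 1.41% and the BG mice start at 1.42%, while in B cells the BG mice (1.02 to 1.16%) lie among the Control mice.

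Since mice ranked alike across classes, the share in each class was set against the share in the B cells of the same mouse. This ratio was chosen after the shares were seen, and the groups overlapped in B cells. It is therefore no separate support of the shares. For T cells this ratio was 1.29, 1.23, 1.25 and 1.26 in Control mice and 1.37, 1.41, 1.46 and 1.35 in BG mice. For Cxcr6 CD4 T cells it was 1.33, 1.26, 1.31 and 1.28 against 1.44, 1.45, 1.51 and 1.43. For NK and ILC1 cells it was 1.40, 1.31, 1.35 and 1.35 against 1.50, 1.50, 1.48 and 1.42. In all 3 lymphocyte classes the groups did not overlap. The ratio of the group means was 1.11 in T cells, 1.13 in Cxcr6 CD4 T cells and 1.09 in NK and ILC1 cells, each smaller than that of the shares themselves (1.15, 1.17 and 1.13). In KCs, monocytes and BMDMs, conventional DCs, plasmacytoid DCs and endothelial cells the groups overlapped.

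**Figure D4:**
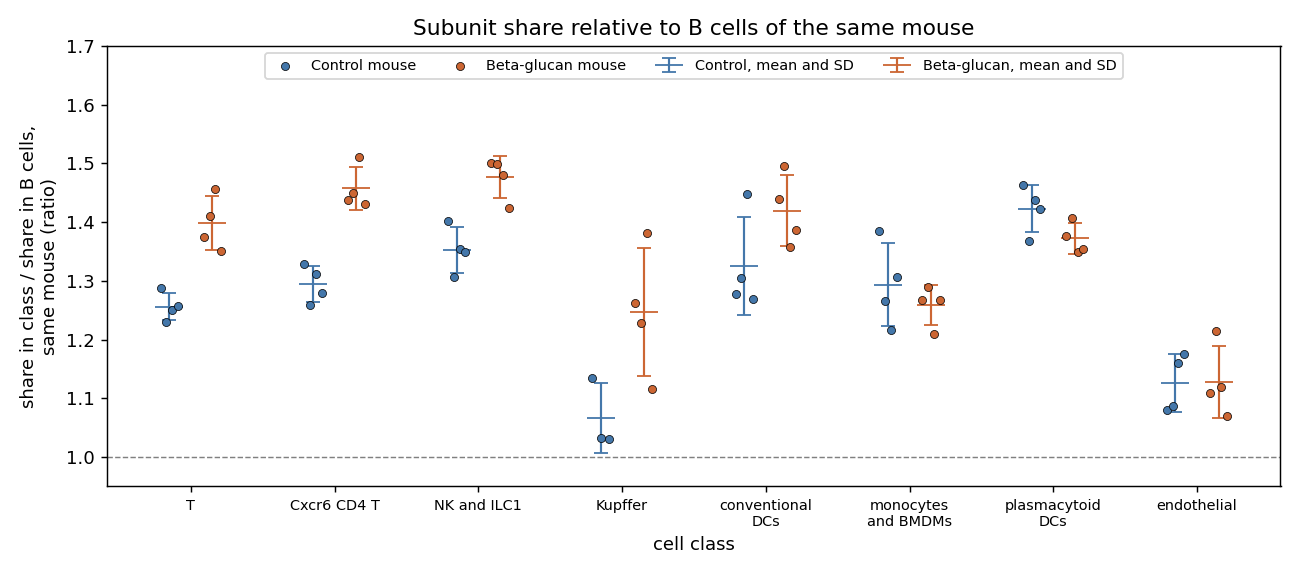
Share of nuclear-encoded UMIs taken by the subunit genes in a class, divided by the share in the B cells of the same mouse (y axis from 0.95, a ratio without unit). Points are mice and bars the mean and SD. The dashed line marks equal shares. T cells run from 1.23 to 1.29 in Control mice and from 1.35 to 1.46 in BG mice.

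The difference between T and B cells was tested gene by gene, as an interaction of class and treatment with the mouse as a block. The change in B cells was smaller than in T cells for 59 of 63 subunit genes, with a median difference of -0.17 on the log2 scale beside 0.02 over all genes. Atp5e was the only one called (-0.30, SE 0.065, adjusted p = 0.0197 by edgeR), where 1.39% of all genes were. This call was lost, and 0 remained, when Control replicate 2 or 4 or BG replicate 5 or 6 was left out. Ndufa4 had an adjusted p of 0.0703 and Atp5b one of 0.0808. At an unadjusted p under 0.05, 22 of 63 subunit genes had the smaller change in B cells (5.14% of all genes) and 0 the larger. Between T cells and KCs 0 subunit genes differed by edgeR (0.036% of all genes), and 0 at an unadjusted p under 0.05 (4.68%). Between KCs and monocytes and BMDMs 0 were called as well (0.173% of all genes), with 4 at an unadjusted p under 0.05 (7.3%). No other tool was run on the differences.

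T cells were also divided by their own receptors, a division chosen after the data were seen. With Cd8a, the median log2 fold change of the subunit genes was 0.17 (54 of 63 positive), and 15 were higher at an unadjusted p under 0.05 (6.42% of all genes). With Cd4 but no Cxcr6 it was 0.17 (52 of 63 positive), with 11 higher (5.38%). With no UMI of Cd4 or Cd8a it was 0.21 (62 of 63 positive), with 33 higher (10.1%). At these depths a count of 0 need not mean that the receptor was absent. This last group held 1436 to 2208 cells per mouse, against 139 to 253 with Cd8a and 131 to 181 with Cd4 but no Cxcr6. Their counts are therefore not alike in depth. By edgeR 0 subunit genes were called in these 3 groups, where 0.65, 0.981 and 2.51% of all genes were called higher. DESeq2 was not run on them.

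In B cells 0 subunit genes were called by edgeR (1.52% of all genes were called higher) or by DESeq2 (1.38%), and 2 were higher at an unadjusted p under 0.05 (5.43% of all genes). The 7 core subunits of complex I had a median of -0.06 there, with 1 of 7 positive. In KCs 0 were called by edgeR (0.684% of all genes) or by DESeq2 (1.27%), 11 were higher at an unadjusted p under 0.05 (6.55%), and for 5 all BG mice lay above all Control mice (5.29%). Uqcrq, a small subunit of complex III named here after its values were seen, had the largest KC change. Its level was 155, 156 and 161 CPM in 3 Control mice and 296, 240.3, 408 and 181 in BG mice, without overlap (log2 fold change 0.88, SE 0.289, adjusted p = 0.137 by edgeR). The lowest value in KCs was that of Uqcrfs1, at -0.70 with overlapping groups. The summed share in KCs was 1.30, 1.02 and 1.02% in Control replicates 2, 3 and 4 and 1.36, 1.25, 1.60 and 1.17% in BG mice, which overlapped. Without BG replicate 8, 1 subunit gene was called in KCs. The share of all genes called in that repeat is not given. This count therefore does not show whether the subunit genes moved apart from all genes.

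Monocytes and BMDMs had a median of -0.03 (24 of 61 positive), which ran from -0.08 without Control replicate 3 to 0.01 without Control replicate 1. By edgeR 0 were called there (1.59% of all genes were called higher), by DESeq2 0 (2.47%), and 5 had an unadjusted p under 0.05, all 5 lower (5.49%). For 5 genes all BG mice lay below all Control mice (3.5% of all genes). Conventional DCs had a median of 0.12 (41 of 61 positive), and 0 were called by edgeR (0.225%) or DESeq2 (0.225%). There 5 were higher (3.56% of all genes) and 1 lower (2.32%) at an unadjusted p under 0.05, and for 5 all BG mice lay above all Control mice (1.8%). The lower one was Uqcrfs1, at 167, 141, 196 and 112 CPM in Control mice and 85.6, 78.1, 90.4 and 78.2 in BG mice (log2 fold change -0.87, SE 0.246, adjusted p = 0.319 by edgeR). Its groups did not overlap, but the class held only 24 to 62 cells per mouse. Plasmacytoid DCs had 0 called by edgeR (0.592%) or DESeq2 (0.48%), with 2 higher (4.77%) and 1 lower (3.33%) at an unadjusted p under 0.05. Endothelial cells had 0 by edgeR (1.05%) or DESeq2 (1.11%), 2 higher (4.42%) and 0 lower (2.94%) at an unadjusted p under 0.05, and a median of 0.08 with 51 of 63 positive.

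Other gene lists of energy metabolism were read beside the subunit genes in T cells, where 3.1% of all genes were called higher by edgeR. Complex II, which links the tricarboxylic acid cycle to the chain, had a median log2 fold change of 0.14 with 0 of 4 called by edgeR and 0 at an unadjusted p under 0.05. Nuclear subunits of complex IV had a median of 0.27, with 2 of 11 tested genes higher, Cox5a (0.37, adjusted p = 0.0415) and Cox6c (0.40, adjusted p = 0.0465). Cox7a2l, of the same list, went the other way without passing the test (-0.29, adjusted p = 0.0893 by edgeR). The 13 mitochondrially encoded subunits had a median of 0.13 with 0 called by edgeR and 0 at an unadjusted p under 0.05. In the list of carriers Atpif1, the inhibitor protein of ATP synthase, rose from 58.8, 71.5, 58.3 and 52.6 CPM in Control mice to 89.1, 68.7, 96.5 and 81.1 in BG mice (0.47, adjusted p = 0.035 by edgeR). Of these BG mice, replicate 6 fell below Control replicate 2. Cycs, which encodes cytochrome c, had 0.43 (adjusted p = 0.0533).

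Lists that supply or assemble the enzymes were read in the same way, again beside the 3.1% of all genes called higher in T cells. The assembly factors had a median of 0.05 in T cells with 0 of 33 called by edgeR and 4 higher and 2 lower at an unadjusted p under 0.05. The tricarboxylic acid cycle had 0.07 with 0 of 15 called and 3 higher at an unadjusted p under 0.05. The mitochondrial ribosome had 0.17 with 2 of 78 called higher, Mrps18c and Mrpl33, both with a log2 fold change of 0.43. The cytosolic ribosome had 0.04 with 3 of 86 higher. Both ribosome counts lie near the share of all genes. Among the regulators 1 of 9 rose, Myc (0.49, adjusted p = 0.00282 by edgeR), a factor known to drive growth and mitochondrial genes in activated T cells. Glycolysis had 4 of 15 higher, with Gapdh at 0.48, Pgk1 at 0.44, Tpi1 at 0.38 and Pkm at 0.33. The largest changes were in the cell cycle list, with 13 of 24 higher and a median of 1.29, among them the replication helicase genes Mcm5 (1.77) and Mcm3 (1.64).

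In NK and ILC1 cells Sdhd of complex II rose (0.66, adjusted p = 0.0269 by edgeR), as did Cycs (0.48, adjusted p = 0.0439) and Atpif1 (0.46, adjusted p = 0.0457). Nuclear complex IV had a median of 0.26 with 0 of 11 called by edgeR and 7 higher at an unadjusted p under 0.05. The cytosolic ribosome had 9 of 84 higher (2.44% of all genes) with a median of 0.16. In Cxcr6 CD4 T cells Atpif1 rose by a log2 fold change of 0.87 (adjusted p = 0.011), Cox5a by 0.50 and Cox6c by 0.44, and 3 of 13 glycolysis genes rose (1.96% of all genes). The cell cycle list had 14 of 18 tested genes higher in NK and ILC1 cells (2.44% of all genes), with a median of 1.56. In Cxcr6 CD4 T cells it had 11 of 18 higher (1.96%), with a median of 1.32. In B cells the cell cycle list, with 2 of 14 higher (1.52% of all genes), was the only one of these lists with a call. In monocytes and BMDMs 9 of 80 genes of the cytosolic ribosome were lower (0.557% of all genes), with a median of -0.27.

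Several other measures moved with the subunit genes between groups, and their part in the result was not tested except where stated. Cells with at least 2 UMIs of a core set of 11 cycling genes made up 1.13 to 2.57% of the T cells of Control mice and 2.17 to 7.93% of those of BG mice. The shares were 0.94 to 1.98% against 2.62 to 8.02% in NK and ILC1 cells, in Cxcr6 CD4 T cells 0.926 to 3.87% against 3.57 to 11.9%, and in B cells 0.371 to 0.556% against 0.683 to 1.90%. Among KCs they were 0 of 21, 0 of 83 and 4.35% in the 3 Control mice tested, where the counts of 0 allow up to 14.3 and 3.61%, and 5.56 to 23.0% in BG mice. The cell cycle list had 3 of 6 tested genes higher in KCs (0.684% of all genes), with a median of 1.43. With the core cycling cells removed the median of the subunit genes in T cells was 0.22, with 62 of 63 positive and 36 higher at an unadjusted p under 0.05 (9.32% of all genes), while 0 were called by edgeR. The median was then 0.22 in Cxcr6 CD4 T cells, 0.14 in NK and ILC1 cells and 0.32 in KCs. Removing instead every cell with at least 2 UMIs of the full cell cycle list, which kept 25.6% of T cells, gave a median of 0.10 in T cells, with 50 of 63 positive and 3 higher at an unadjusted p under 0.05 (4.4%). It gave 0.06 in Cxcr6 CD4 T cells (28 of 49 positive) and 0.08 in NK and ILC1 cells (36 of 61). This wider rule marked 63.9 to 83.2% of the T cells and 29.9 to 47.4% of the B cells of Control mice. By the core set these shares were 1.13 to 2.57% and 0.371 to 0.556%. Among Control T cells the rule marked most in replicate 1, which had the highest median UMIs. It may thus keep cells of few UMIs rather than single out cycling ones, which was not tested. Median UMIs per T cell ran from 2505.5 to 3306.5 in Control mice and from 2614 to 3876 in BG mice. In T cells of 2000 to 4000 UMIs, 65.2% of the class, the median of the subunit genes was 0.17, with 61 of 63 positive and 0 called by edgeR. For these cells, and with the core cycling cells removed, the share of all genes called is not given. A count of 0 there therefore does not show whether the subunit genes moved apart from all genes. Hepatocyte marker RNA in T cells was highest in BG replicate 7, at 0.0357% of UMIs, and 0.0125 to 0.0254% in the other 7 mice. In NK and ILC1 cells the T cell markers took 0.193 to 0.220% of the UMIs of Control mice and 0.128 to 0.175% of those of BG mice, and the markers of the class itself 0.434 to 0.471% against 0.382 to 0.434%, both without overlap. The T cell markers in T cells took 0.546 to 0.631% against 0.510 to 0.543%, and those in Cxcr6 CD4 T cells 0.560 to 0.689% against 0.528 to 0.557%, also without overlap. In KCs the list of monocytes and BMDMs took 0.367 to 0.730% (Control) and 0.290 to 0.413% (BG), and the hepatocyte list 0.214 to 0.262% against 0.191 to 0.282%.

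Short, abundant transcripts as a whole also had mostly positive fold changes in T cells. Genes with under 1000 exon bases and at least 50 CPM numbered 117, subunit genes included, and their median log2 fold change was 0.14, with 78.6% positive. The 13 subunit genes among them had a median of 0.28. In NK and ILC1 cells the 13 subunit genes had 0.16 where all 114 such genes had 0.12, and in Cxcr6 CD4 T cells 0.31 where all 120 had 0.13. In B cells the subunit genes of this kind had 0.07 and all 107 such genes 0.08. In T cells the subunit genes of 2000 exon bases or more had a median of 0.22 (24 of 25 positive), where all 9634 genes of that length had -0.01.

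Levels were then compared between classes in the Control mice, each class against the average of the others with the mouse as a block, and called at an adjusted p under 0.05 (edgeR, Benjamini-Hochberg) and a log2 difference over 0.5. The summed share ran from 1.48% ± 0.078 (SD, n = 4) in plasmacytoid DCs through 1.41% ± 0.084 in NK and ILC1 cells, 1.38% ± 0.11 in conventional DCs, 1.34% ± 0.12 in monocytes and BMDMs and 1.31% ± 0.084 in T cells to 1.17% ± 0.054 in endothelial cells, 1.11% ± 0.16 (n = 3) in KCs and 1.04% ± 0.075 in B cells. The ranges of neighbours in this order overlapped. Hepatocytes, in 3 Control mice with enough of them, had 5.15% ± 0.63 and bile duct cells 2.05% ± 0.13, and neutrophils had 0.837% ± 0.13. These 3 classes were not tested.

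Conventional DCs had the most subunit genes higher than in the other classes, 15 of 63, where 15.6% of all genes were. Atp5c1 led with 327 ± 32.3 CPM (SD, n = 4) against a mean of 183 in the other classes, a log2 difference of 0.92. Uqcrfs1 followed with 0.76 and Atp5f1, of the stator stalk, with 0.72. Ndufs3, a core subunit of complex I, was the 1 gene lower there, with -0.66 (12.9% of all genes were lower). In plasmacytoid DCs 9 were higher (18.7% of all genes), led by Uqcr11 at 260 ± 40.5 CPM against 153, a log2 difference of 0.77. Ndufs5 followed with 0.71 and Ndufs8 with 0.69.

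Monocytes and BMDMs had 9 higher (17.4% of all genes) and 1 lower (9.23%). Ndufb1-ps, an accessory complex I gene, was at 437 ± 91.6 CPM against 235, a log2 difference of 0.93, followed by Ndufb8 with 0.68 and Atp5l with 0.60. Ndufa12 was the lower one, with -0.52. NK and ILC1 cells had 3 higher (17.2%), Ndufv3 with 0.55, Ndufa1 with 0.53 and Ndufa13 with 0.52. T cells had Ndufv3 higher at 153 ± 19.6 against 91.1, a log2 difference of 0.74 (18.9% of all genes), and Uqcr11 lower with -0.50 (16.2%). Ndufv3, which sits beside the flavin subunits of complex I, was thus higher in both of these lymphocyte classes.

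B cells had 8 subunit genes lower (19.1% of all genes), with Uqcrb at 133 ± 9.16 CPM against 215, a log2 difference of -0.70, Ndufb6 with -0.57 and Ndufc2 with -0.55. KCs had 15 lower (7.35%), more than the share of all genes, with Ndufv1 at -1.35, Atp5c1 at -1.26 and Ndufb11 at -1.23. These levels rest on 3 Control mice with 21, 83 and 46 KCs. Of the 7 core subunits of complex I, among them Ndufv1, only 4 had enough UMIs to be tested between groups in KCs. Leaving out 1 mouse each gave 10 to 25, and the highest count was the one without Control replicate 1. Endothelial cells had 13 lower (16.9%), led by Atp5e with 300.2 ± 35.0 CPM against 597 and a log2 difference of -0.95. Uqcrfs1 followed with -0.94 and Atp5g2 with -0.85. Medians over the 63 genes were 0.29 in conventional DCs, 0.21 in plasmacytoid DCs, 0.16 in monocytes and BMDMs, 0.07 in T cells, 0.05 in NK and ILC1 cells, -0.18 in B cells, -0.22 in endothelial cells and -0.40 in KCs. Over all genes they lay between -0.10 and 0.13.

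**Figure D5:**
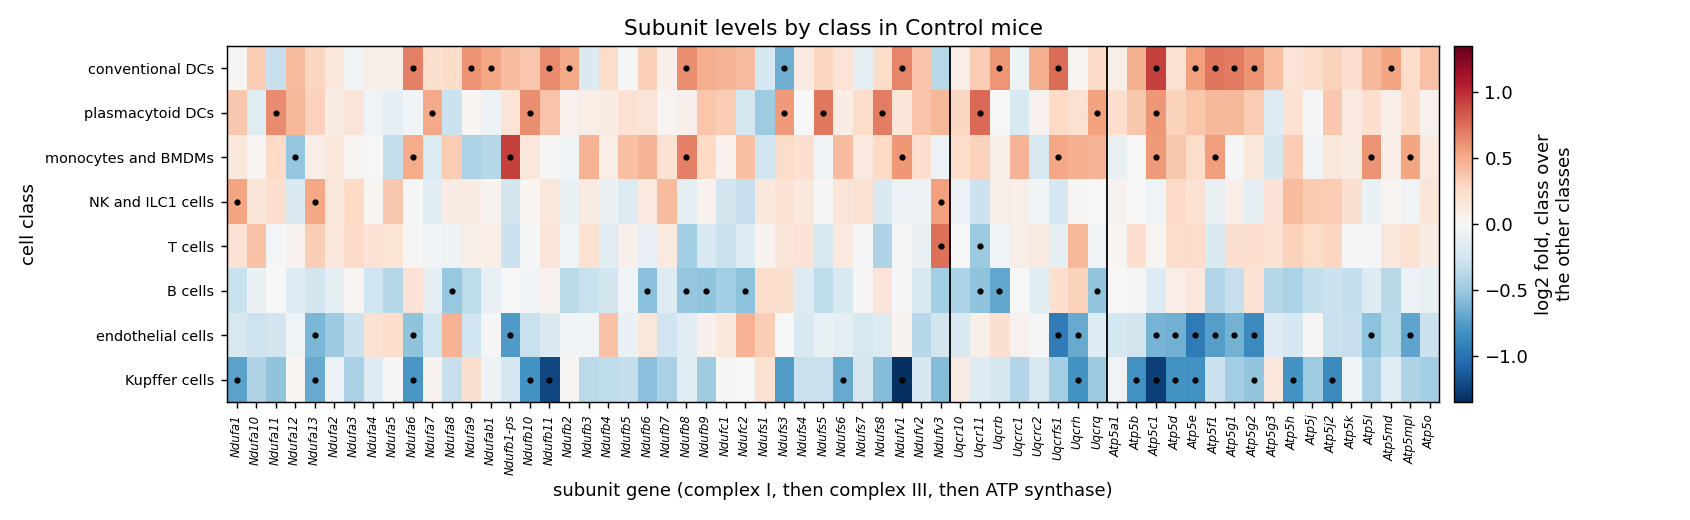
Log2 level of the tested subunit genes but 1 (x axis, by enzyme) in 8 classes of Control mice over the mean of the other classes, red for higher and blue for lower. Dots mark an adjusted p below 0.05 with a difference over 0.5. Conventional DCs hold 15 higher genes, and KCs and endothelial cells 15 and 13 lower ones.

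The 3 c-subunit genes, which give the same protein, differed in where they were high. Their coding regions are closely alike, and whether reads were shared between them was not tested. Atp5g1 ran from 122 ± 11.8 CPM in endothelial cells to 281 ± 10.2 in conventional DCs, and Atp5g2 from 218 ± 25.2 to 529 ± 107 in the same 2 classes. Atp5g3 lay between 125 ± 13.3 in B cells and 200.4 ± 32.9 in conventional DCs. In B cells Atp5g2 stood above the other classes (log2 difference 0.19) while Atp5g1 (-0.31) and Atp5g3 (-0.39) stood below them, all 3 with an adjusted p under 0.05 by edgeR and under the limit of 0.5 on the difference. Atp5e, the gene called in 2 lymphocyte classes after BG, was at 624 ± 67.2 CPM in the T cells and 587 ± 85.2 in the B cells of Control mice in this scaling. Its level in untreated mice thus overlapped between the 2 classes.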

How the data were processed

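The authors aligned reads of 10x 3' libraries to mm10 with Cell Ranger, introns included, and deposited matrices of raw UMI counts per gene and barcode. Per the file headers the version was Cell Ranger 6.1.2. The annotation release is not given in the sources used here. All 8 matrices were used, and 0 columns of sample values were left out. A cell entered a class with at least 4 of its fixed markers and a second class at most 0.75 times as strong. No doublet caller was run. UMIs were summed per mouse and class with at least 10 cells, for at least 3 mice per group, filtered by filterByExpr, scaled by TMM and tested with edgeR 4.0.16 (R 4.3.3, limma 3.58.1). DESeq2 1.42.0 was an alternative. Tables were made with Python 3.11.15, pandas 2.3.3, numpy 2.4.6, scipy 1.17.1 and matplotlib 3.10.9. p-values cover the spread between these mice, each 1 library. The comparison of groups was tested on counts simulated from the T cell means and library sizes, with each gene drawn apart. The other classes, the fits with the mouse as a block and the interaction were not simulated. Members and lists were chosen with earlier results of these data known. Genes named are called subunit genes (3 per class and direction), 19 fixed ones (1 is not reported here), and at most 4 per other list.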

Additional observations from a re-analysis of the deposited data

Results flagged for a closer look

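In endothelial cells the complex I genes of Control replicate 2 took 0.596% of nuclear-encoded UMIs, apart from the other 3 Control mice at 0.551 to 0.553%. Among 78 groups of 4 mice looked at, this was the 1 with a mouse apart, and chance gives about 1 in 20. The change of Atp5e differed between T and B cells by -0.30 on the log2 scale (B cells lower, tested as an interaction with edgeR).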

How the results depend on the processing

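No paired analysis was possible because replicates 1 to 4 are Control and 5 to 8 are BG, with no number in both groups. No called value turned its direction, but sizes changed, and Uqcr11 in Cxcr6 CD4 T cells fell to a log2 fold change of 0.06 at the lowest. Of the main values and counts recomputed under an alternative, 462 stayed within the limits used and 67 moved. Counts below are given without the share of all genes called in the same setting. Counts of subunit genes called higher in T cells were 0 with RLE size factors, with at most 10% mitochondrial UMIs, without cycling cells, without core cycling cells and in cells of 2000 to 4000 UMIs, 7 without the upper limit on genes, 12 with DESeq2, and 0 to 9 leaving out 1 mouse. In Cxcr6 CD4 T cells they were 0 with at most 10% mitochondrial UMIs, without cycling cells (median log2 fold change 0.059), without core cycling cells and in cells of 2000 to 4000 UMIs, 1 with a purer gate, 4 with library sizes free of ribosomal and mitochondrial genes, 8 without the upper limit on genes, and 0 to 5 leaving out 1 mouse. In NK and ILC1 cells they were 1 with a stricter gate or at most 10% mitochondrial UMIs, 0 without cycling or core cycling cells and in cells of 2000 to 4000 UMIs, and 0 to 4 leaving out 1 mouse, and in KCs 0 to 1. The planned setting without cycling cells dropped every cell with at least 2 UMIs of the full cell cycle list. It kept 25.6% of T cells and 16.4% of Cxcr6 CD4 T cells, so fewer cells were tested, and they may be those of fewer UMIs. The removal of core cycling cells kept 96.5% and 94.3%. For levels across classes, RLE size factors gave 5 higher in monocytes and BMDMs, 1 lower in plasmacytoid DCs and 2 higher in endothelial cells, and the stricter gate gave 0 lower in T cells, 0 lower in conventional DCs and 1 lower in plasmacytoid DCs. Leaving out 1 mouse gave 1 to 2 higher and 0 to 2 lower in T cells, 10 to 25 lower in KCs, 3 to 11 higher and 0 to 3 lower in monocytes and BMDMs, 9 to 20 higher and 0 to 1 lower in conventional DCs, 0 to 1 lower in plasmacytoid DCs, 0 to 1 higher in endothelial cells, and 0 to 1 for the difference between T and B cells. The cause of these moves was not tested. The core cycling set, the purer gate, the UMI range, the division of T cells and the ratio to B cells were chosen after seeing the data. KCs and plasmacytoid DCs could not be fitted with at most 10% mitochondrial UMIs, nor conventional DCs without cycling cells or in the UMI range. With 369 KCs and 301 conventional DCs, depth limits what can be detected in these classes.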
